A study of Mus musculus with 12 samples.

Results

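Slc16a8, Best1, Krt8, Krt18, Enpp2 and Wfdc1 are genes with a known place in the retinal pigment epithelium or its neighbours. They were chosen by name, not by a threshold on measured values but with earlier results of these data known, and are 6 of the 56748 genes in the count table. Poly-A RNA of whole mouse retinas was sequenced in 4 groups of 3 mice, each library a retina from a separate mouse. The groups were C57BL/6J, the wild-type control strain, and JR5558, each at 4 weeks and at 8 weeks of age. JR5558 is an inbred line that grows new vessels beneath the retina without any treatment. It is known to be homozygous for the rd8 allele of Crb1 and to carry an allele of Jak3, so a strain difference here is one between whole genomes and not the effect of 1 allele. No treatment, transgene or Cre was named for any group.

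The retinal pigment epithelium is a single sheet of pigmented cells between the photoreceptors and the choroid. It carries lactate, ions and water out of the space around the photoreceptor outer segments, supplies retinal for the visual pigment, and forms the outer blood-retinal barrier. Slc16a8 encodes MCT3, the lactate transporter of its basal face. Best1 encodes bestrophin 1, a calcium-gated chloride channel mutated in Best vitelliform macular dystrophy. Krt8 and Krt18 are the type II and type I keratins that pair into the intermediate filaments of simple epithelia. Enpp2 encodes autotaxin, a secreted enzyme that makes lysophosphatidic acid, and Wfdc1 encodes a secreted protein with a whey acidic protein domain. When a retina is dissected free, most of this sheet usually stays behind with the eyecup, and the labels do not say how much came along with each retina.

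Library totals ran from 18029611 to 23739886 counts, and the 18334 genes that passed the filter on low counts held 99.9% of them. The level of pigment epithelium RNA differed between libraries. A reference score, the mean log2 CPM (a count scaled so that its library sums to 1e6) of 9 pigment epithelium genes that include none of the 6 (Rpe65, Lrat, Rdh5, Rrh, Ttr, Stra6, Cdh3, Slc6a20a and Car12), was 1.77 to 3.63 in C57BL/6J at 4 weeks and 3.00 to 3.66 at 8 weeks. In JR5558 it was 3.82 to 4.52 at 4 weeks and 4.09 to 4.60 at 8 weeks, above every C57BL/6J library. Rpe65, the isomerase of the visual cycle and the defining gene of these cells, was found in all 12 libraries, at 3.13 CPM in C57BL/6J 4-week replicate 2 and up to 54.6 CPM in JR5558. The 3 JR5558 libraries of 4 weeks held 0 to 5 counts of Xist and 1323 to 1846 of Ddx3y, while the other 9 held 7772 to 22988 of Xist and 0 of Ddx3y. The sex those genes mark therefore cannot be told apart from strain at 4 weeks, from age in JR5558 or from the difference between the strain effects, and it is the same in all libraries of the 8-week strain comparison.

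The genes lie on 3 chromosomes (GRCm38, GENCODE M21). Slc16a8 (ENSMUSG00000032988) lies on chr15:79251014-79254761, minus strand, and Enpp2 (ENSMUSG00000022425) on chr15:54838901-54952892, minus strand. Krt8 (ENSMUSG00000049382) on chr15:101996698-102004482, minus strand, and Krt18 (ENSMUSG00000023043) on chr15:102028180-102032027, plus strand, are neighbours, the only place in the genome where a type I keratin gene sits in the type II cluster. Best1 (ENSMUSG00000037418) lies on chr19:9985174-10001633, minus strand, and Wfdc1 (ENSMUSG00000023336) on chr8:119666365-119688222, plus strand.

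The promoters of the transporter, the channel and the keratin pair are shown so that the start regions of genes of differing level can be compared. RefSeq's table of promoters (GRCm38.p6, 250 bases before to 50 after the start of the gene, sense strand 5′ to 3′) matched these 4 of the 6 genes. Capitals mark matches, on either strand, to 1 of 5 motifs: CATGTG, the E-box of the MITF family, CACGTG, a palindromic E-box, TAATCC, the core bound by OTX and CRX homeodomain proteins, TAAGCC, a variant of that core, and TATAAA, the TATA box. OTX2 and MITF are the classical transcription factors of the pigment epithelium. TAATCC and TAAGCC were added to the search after the sequences had been seen.
Slc16a8, chr15:79254699-79254998, minus strand: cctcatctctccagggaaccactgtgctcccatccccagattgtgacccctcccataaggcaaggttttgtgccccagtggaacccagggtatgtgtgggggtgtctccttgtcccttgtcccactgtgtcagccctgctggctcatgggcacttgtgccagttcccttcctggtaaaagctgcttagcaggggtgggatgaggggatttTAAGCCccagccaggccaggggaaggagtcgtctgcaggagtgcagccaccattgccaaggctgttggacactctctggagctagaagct
Best1, chr19:10001584-10001883, minus strand: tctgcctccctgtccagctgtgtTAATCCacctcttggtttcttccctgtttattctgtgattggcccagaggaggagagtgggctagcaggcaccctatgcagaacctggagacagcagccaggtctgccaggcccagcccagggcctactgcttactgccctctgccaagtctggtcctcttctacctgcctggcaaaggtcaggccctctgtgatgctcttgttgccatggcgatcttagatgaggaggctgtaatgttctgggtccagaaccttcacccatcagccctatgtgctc
Krt8, chr15:102004293-102004592, minus strand: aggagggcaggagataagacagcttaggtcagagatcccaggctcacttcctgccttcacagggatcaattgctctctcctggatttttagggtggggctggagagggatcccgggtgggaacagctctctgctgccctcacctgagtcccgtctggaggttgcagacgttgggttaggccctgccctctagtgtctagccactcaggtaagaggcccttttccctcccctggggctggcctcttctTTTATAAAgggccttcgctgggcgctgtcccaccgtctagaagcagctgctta
Krt18, chr15:102027966-102028265, plus strand: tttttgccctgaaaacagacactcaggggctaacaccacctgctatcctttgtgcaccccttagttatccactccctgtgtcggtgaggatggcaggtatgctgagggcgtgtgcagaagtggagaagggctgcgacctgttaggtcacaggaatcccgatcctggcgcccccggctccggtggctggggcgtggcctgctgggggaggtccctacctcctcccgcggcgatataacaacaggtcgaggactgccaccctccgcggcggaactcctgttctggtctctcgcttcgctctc
The Slc16a8 promoter held TAAGCC, which 9.48% of 32851 promoters of the same length hold, and the Best1 promoter held TAATCC, which 7.06% hold. The Krt8 promoter held TATAAA on both strands in overlapping letters, a motif that 13.6% of promoters hold. These matches begin 3 and 1 bases before the RefSeq start, which differs from the GENCODE start of Krt8 given above. The Krt18 promoter held none of the 5, and neither CATGTG (14.2% of promoters) nor CACGTG (7.15%) was in any of the 4. The promoters differed in their CG dinucleotides: 1 in Slc16a8, 1 in Best1, 6 in Krt8 and 17 in Krt18, against a median of 7. A match is a run of letters, not a measured site.

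Per length, the 6 genes spanned a wide range of levels, and their order was nearly the same in every library. In the deposited FPKM values, Krt18 was the highest of the 6 in all 12 libraries, at 32.2 to 57.7 (mean 41.9), and Enpp2 came next in all 12, at 7.19 to 17.5 (mean 13.5). Slc16a8 at 1.82 to 13.1 and Wfdc1 at 4.14 to 8.77 FPKM exchanged places between libraries, so their levels are not ordered beyond their spread. Krt8 ranked 5 of 6 in every library at 0.510 to 3.58 FPKM, and Best1 lowest in every library at 0.192 to 0.606. Slc16a8 and Krt8 varied most, with a highest library 7.16 and 7.00 times the lowest in CPM, and Krt18 varied least, at 1.81 times.

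**Figure D1:**
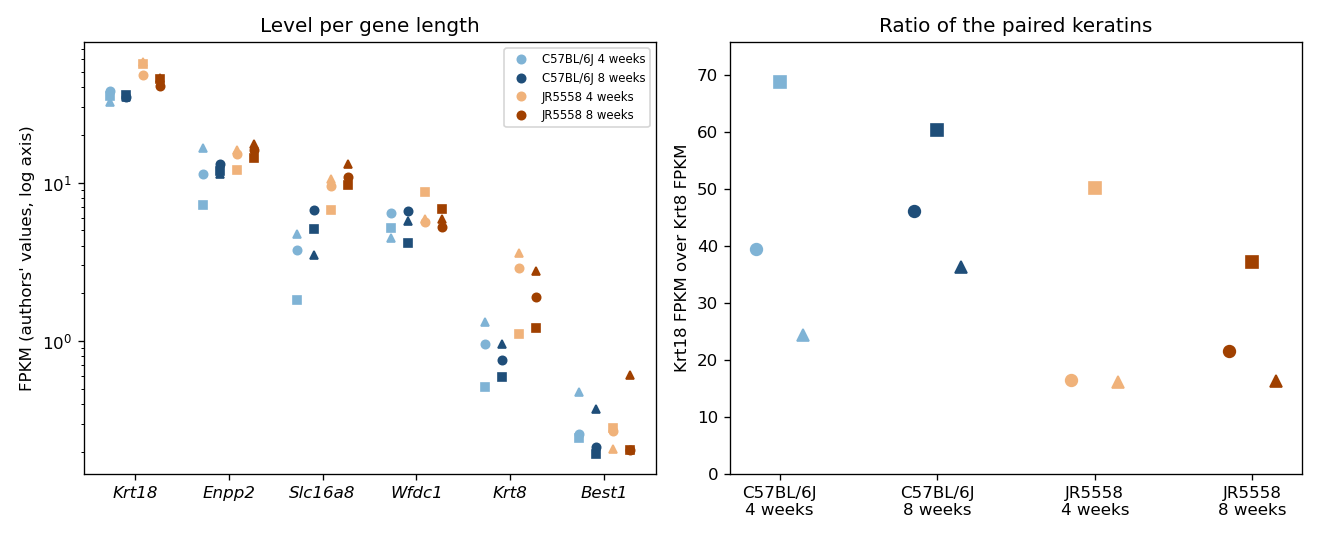
Levels per length (FPKM, log axis) of the 6 genes in the 12 libraries, and the ratio of Krt18 to Krt8 FPKM in each library by group. Krt18 is highest and Best1 lowest in every library, and the keratin ratio runs from 16.1 to 68.8 with groups that overlap.

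Slc16a8 was higher in JR5558 at both ages. Its level was 8.63, 4.20 and 10.8 CPM in the C57BL/6J libraries of 4 weeks, replicates 1 to 3, and 15.4, 11.7 and 7.97 CPM at 8 weeks. In JR5558 it was 21.7, 15.5 and 24.3 CPM at 4 weeks and 24.7, 22.3 and 30.1 CPM at 8 weeks. Every JR5558 library was above every C57BL/6J library, though JR5558 4-week replicate 2, at 15.5, stood just above the highest C57BL/6J library of 8 weeks, at 15.4. With edgeR's quasi-likelihood test, adjusted over the 18334 genes tested, the log2 fold change of JR5558 over C57BL/6J was 1.37 ± 0.26 (SE, n = 3 mice per group) at 4 weeks, adjusted p = 0.00277, and 1.13 ± 0.26 at 8 weeks, adjusted p = 0.0109. The lactate transporter passed at both ages, as Krt18 did. In bulk retina, fewer cells of a type and less RNA per cell cannot be told apart, and the reference score moved with this result. With that score as a covariate, edgeR gave 0.30 ± 0.19 (adjusted p = 0.493) at 4 weeks and 0.38 ± 0.15 (adjusted p = 0.248) at 8 weeks. The score was higher in every JR5558 library than in every C57BL/6J library. A fit with both therefore cannot well separate strain from score, here or for the genes below. The 8-week call also ended without C57BL/6J 8-week replicate 2 (edgeR adjusted p = 0.0501) or 3 (0.0715), or without JR5558 8-week replicate 3 (0.0741).

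Best1 showed no strain difference that could be detected at this depth. The channel gene gave only 9 to 33 counts per library. Its level was 0.668, 0.638 and 1.22 CPM in C57BL/6J at 4 weeks and 0.560, 0.498 and 0.962 CPM at 8 weeks. In JR5558 it was 0.701, 0.732 and 0.540 CPM at 4 weeks and 0.534, 0.532 and 1.57 CPM at 8 weeks. The groups overlapped at both ages, and the single highest library was JR5558 8-week replicate 3. The edgeR log2 fold changes were -0.36 ± 0.53 at 4 weeks (adjusted p = 0.775) and 0.38 ± 0.53 at 8 weeks (adjusted p = 0.781), errors that span a change in either direction. Without C57BL/6J 4-week replicate 3 the first was 0.01, and without JR5558 8-week replicate 3 the second was -0.33.

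**Figure D2:**
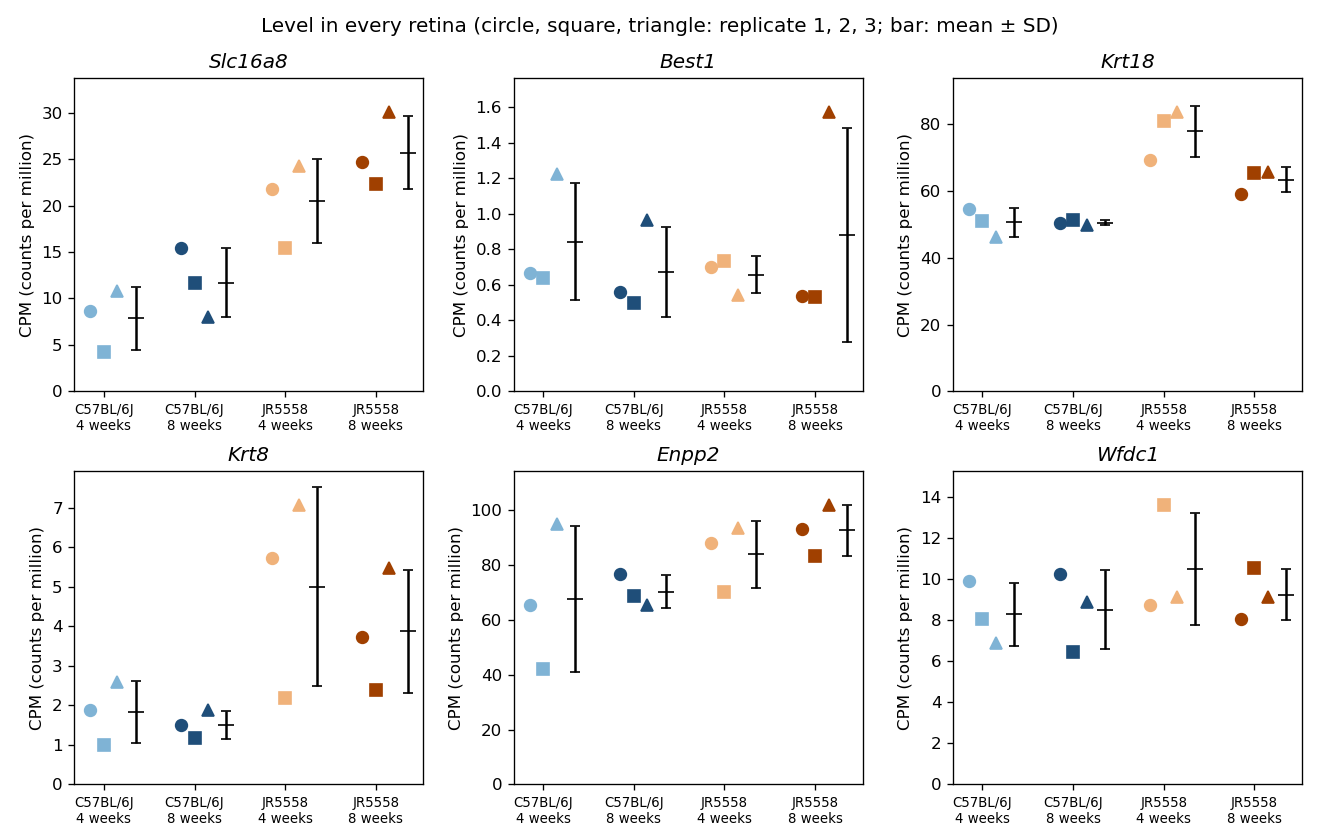
CPM of each of the 6 genes in each library (1 point per retina), by strain and age, with a bar for each group's mean ± SD (n = 3). JR5558 lies above C57BL/6J without overlap at both ages for Slc16a8 and Krt18, while the Best1 and Wfdc1 groups overlap at both ages.

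Krt18, the type I keratin, was higher in JR5558 at both ages, by a smaller but more precisely measured change than Slc16a8. It stood at 54.8, 51.0 and 46.2 CPM in C57BL/6J at 4 weeks and at 50.5, 51.3 and 49.8 CPM at 8 weeks. In JR5558 it stood at 69.3, 80.9 and 83.7 CPM at 4 weeks and at 59.1, 65.4 and 65.8 CPM at 8 weeks. The strains did not overlap at either age, and the 2 C57BL/6J groups had nearly the same mean, 50.6 ± 4.29 and 50.5 ± 0.778 CPM (SD, n = 3). The edgeR log2 fold change was 0.62 ± 0.09 at 4 weeks (adjusted p = 0.000183) and 0.33 ± 0.09 at 8 weeks (adjusted p = 0.0420). The 4-week call held in every alternative that was run, with the reference score as a covariate too (0.67 ± 0.14, edgeR adjusted p = 0.0110). The 8-week call ended under that covariate (0.36 ± 0.11, edgeR adjusted p = 0.112). It also ended when 1 library was left out: C57BL/6J 8-week replicate 1 (edgeR adjusted p = 0.130), 2 (0.107) or 3 (0.122), JR5558 4-week replicate 2 (0.0507), or JR5558 8-week replicate 2 (0.151) or 3 (0.181).

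Krt8, the type II partner of Krt18, rose more in fold but less steadily. It was at 1.89, 1.01 and 2.59 CPM in C57BL/6J at 4 weeks and at 1.49, 1.16 and 1.87 CPM at 8 weeks. In JR5558 it was at 5.73, 2.20 and 7.07 CPM at 4 weeks and at 3.74, 2.39 and 5.48 CPM at 8 weeks. JR5558 replicate 2, a different mouse at each age, was the lowest of its group at both ages. At 4 weeks it lay below the highest C57BL/6J library, whereas at 8 weeks the strains did not overlap. The edgeR log2 fold change was 1.44 ± 0.41 at 4 weeks (adjusted p = 0.0397) and 1.35 ± 0.42 at 8 weeks (adjusted p = 0.0727), so only the first passed. The 4-week call ended in an edgeR fit of the 6 libraries compared (adjusted p = 0.105), under the reference covariate (0.22 ± 0.52, adjusted p = 0.886), and without any 1 of 6 libraries. These were C57BL/6J 4-week replicate 1 (edgeR adjusted p = 0.0781) or 2 (0.167), C57BL/6J 8-week replicate 2 (0.0506), JR5558 4-week replicate 1 (0.105) or 3 (0.168), and JR5558 8-week replicate 1 (0.0532). At 8 weeks Krt8 passed with DESeq2 (adjusted p = 0.0214), in an edgeR fit of the 6 libraries compared (0.00985), with no filter on low counts (0.000441), and without C57BL/6J 4-week replicate 3 (0.0437), JR5558 4-week replicate 2 (0.0285) or JR5558 8-week replicate 2 (0.0490). In the authors' deposited table it passed at both ages, with log2 fold changes of 1.44 (adjusted p = 0.0331) and 1.36 (adjusted p = 0.00354).

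The keratin partners were not balanced at the RNA level in these retinas. The FPKM of Krt18 was 39.4, 68.8 and 24.3 times that of Krt8 in C57BL/6J at 4 weeks, and 46.0, 60.2 and 36.2 times at 8 weeks. In JR5558 the ratio was 16.5, 50.2 and 16.1 at 4 weeks, and 21.5, 37.2 and 16.4 at 8 weeks. The strains overlapped at both ages, with JR5558 replicate 2, a different mouse at each age, the highest of its group. Across the 12 libraries log2 CPM of the partners had a Pearson correlation of 0.67, which was -0.23 with group means removed, -0.43 in the 6 C57BL/6J libraries and 0.12 in the 6 of JR5558. These are descriptions of libraries that share strain, age and dissection. Within groups, a library high in one keratin was thus not regularly high in the other.

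Enpp2, the autotaxin gene, was the most abundant of the 6 in CPM in most libraries and did not pass in either strain comparison. It was at 65.5, 42.0 and 95.1 CPM in C57BL/6J at 4 weeks and at 76.8, 68.6 and 65.2 CPM at 8 weeks. In JR5558 it was at 88.0, 70.2 and 93.3 CPM at 4 weeks and at 92.9, 83.3 and 101.8 CPM at 8 weeks. The 4-week groups overlapped, with C57BL/6J libraries both highest and lowest of the 6, while at 8 weeks every JR5558 library was above every C57BL/6J library. The edgeR log2 fold change was 0.31 ± 0.19 at 4 weeks (adjusted p = 0.402) and 0.40 ± 0.19 at 8 weeks (adjusted p = 0.277). At 8 weeks the gene did pass in the authors' deposited table (log2 fold change 0.40, adjusted p = 7.52e-05) and in an edgeR fit of only the 6 libraries compared (0.40 ± 0.08, adjusted p = 0.00271). At 4 weeks it passed without C57BL/6J 4-week replicate 3 (edgeR 0.64, adjusted p = 0.0114). With no filter on low counts it passed at both ages (edgeR adjusted p = 0.0455 and 0.000923), and under the reference covariate the edgeR value turned to -0.42 at 4 weeks and -0.13 at 8 weeks.

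Wfdc1, the secreted whey acidic protein domain gene, did not differ beyond its spread. It was at 9.92, 8.02 and 6.87 CPM in C57BL/6J at 4 weeks and at 10.2, 6.42 and 8.88 CPM at 8 weeks. In JR5558 it was at 8.71, 13.6 and 9.13 CPM at 4 weeks and at 8.06, 10.5 and 9.10 CPM at 8 weeks. JR5558 replicate 2, low for Slc16a8, Krt8 and Enpp2, was the highest of its group for Wfdc1 at both ages, in a different mouse each time. The edgeR log2 fold change was 0.34 ± 0.20 at 4 weeks (adjusted p = 0.399) and 0.11 ± 0.20 at 8 weeks (adjusted p = 0.840), and at 8 weeks it was -0.05 without C57BL/6J 8-week replicate 2.

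**Figure D3:**
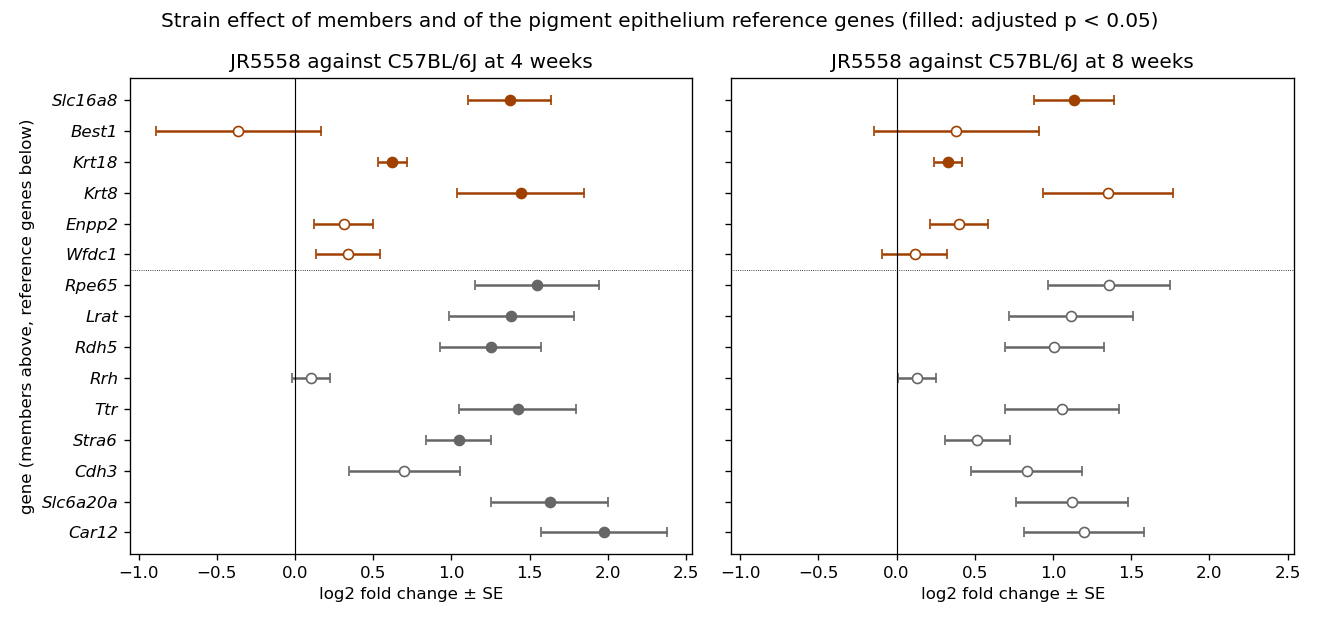
Log2 fold change of JR5558 over C57BL/6J at 4 and 8 weeks for the 6 genes (top) and the 9 reference genes (below), from edgeR, with bars of 1 SE and filled points where the adjusted p is under 0.05. Slc16a8 (1.37 and 1.13) and Krt8 (1.44 and 1.35) lie far from 0, Krt18 (0.62 and 0.33) has the shortest bars, and the Best1 bars cross 0 at both ages.

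Set against all genes, 3 of the 6 were called higher at 4 weeks and 2 of 6 at 8 weeks, and none lower. Of all genes tested, 6.16% were called at 4 weeks (3.27% higher and 2.9% lower) and 5.18% at 8 weeks (2.54% higher and 2.63% lower). The median log2 fold change of the 6 was 0.48 at 4 weeks and 0.39 at 8 weeks, against -0.0012 and -0.00070 over all genes tested. The strains did not overlap in CPM for 2 of 6 genes at 4 weeks, where 19.6% of all genes did not overlap, and for 4 of 6 at 8 weeks, where 30.2% did not. DESeq2 called 3 of 6 at each age, where it called 1410 of all genes at 4 weeks and 1233 at 8 weeks.

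None of the 6 changed with age in either strain at the threshold. In C57BL/6J edgeR called 0 of 6, with 0 at an unadjusted p under 0.05 and 0 by DESeq2, and 0.431% of all genes were called. The ages overlapped in CPM for each of the 6, where 19% of all genes did not overlap. The values ran from -0.33 ± 0.53 for Best1 to 0.57 ± 0.27 for Slc16a8 (edgeR adjusted p = 0.347), which passed with no filter on low counts (adjusted p = 0.0292). In JR5558 edgeR called 0 of 6, with 1 at an unadjusted p under 0.05 and 0 by DESeq2, against 1.51% of all genes. That gene was Krt18, at -0.30 ± 0.09 from 4 to 8 weeks (edgeR adjusted p = 0.102, DESeq2 0.0550), whose 3 libraries of 8 weeks were all below those of 4 weeks. It was 1 of 6 genes without overlap, against 24.3% of all genes, and it passed in the authors' deposited table (-0.29, adjusted p = 0.0392) and in edgeR without C57BL/6J 4-week replicate 3 (adjusted p = 0.0380). The strain effect differed between ages for 0 of 6 genes with edgeR, with 1 (Krt18, -0.29 ± 0.13, adjusted p = 0.646) at an unadjusted p under 0.05 and 0 by DESeq2, against 0.0927% of all genes. The larger strain difference of Krt18 at 4 weeks was therefore not shown to differ from that at 8 weeks.

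The 6 genes differed in how closely they followed the pigment epithelium reference from library to library. Slc16a8 had a Pearson correlation of 0.98 with the reference score over the 12 libraries and 0.97 with group means removed, and rose by 0.81 log2 units per unit of score. Enpp2 had correlations of 0.93 and 0.96, with a shallower slope of 0.56. Krt8 had 0.82 and 0.71. Without C57BL/6J 4-week replicate 2, which has the lowest score, the values with group means removed were 0.95 for Slc16a8, 0.89 for Enpp2 and 0.63 for Krt8. Against the mean of the 8 melanin genes, which pigment epithelium and choroid share, the values with group means removed were 0.10 for Slc16a8, -0.17 for Enpp2 and -0.30 for Krt8. The 3 genes that followed the reference score within groups thus did not follow the melanin genes there. The reference score did not do so in every group either. In C57BL/6J replicates 1 to 3 at 4 weeks it was 3.12, 1.77 and 3.63, where the melanin mean was 2.15, 2.41 and 2.15. At 8 weeks, where both went together more closely, it was 3.66, 3.56 and 3.00 against 2.32, 2.39 and 1.79. The low values against the melanin genes are therefore not particular to these 3 genes. The transporter and the autotaxin gene also followed each other, at 0.88 over all libraries and 0.91 with group means removed.

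The other genes followed the score less closely. Krt18 had a correlation of 0.61 over the 12 libraries, which was -0.20 with group means removed. Wfdc1 had 0.16 and -0.32, and -0.85 within the 6 JR5558 libraries. With group means removed it was -0.63 without C57BL/6J 4-week replicate 2 and -0.66 without the 2 libraries of most extreme score, and Krt18 was -0.27 and -0.38. Best1, a gene known from the same cells as Rpe65, had 0.08 and 0.26, on counts of 9 to 33. With those 2 libraries left out, the Best1 value with group means removed turned to -0.29. These correlations are descriptions over libraries of shared strain, age and depth.

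**Figure D4:**
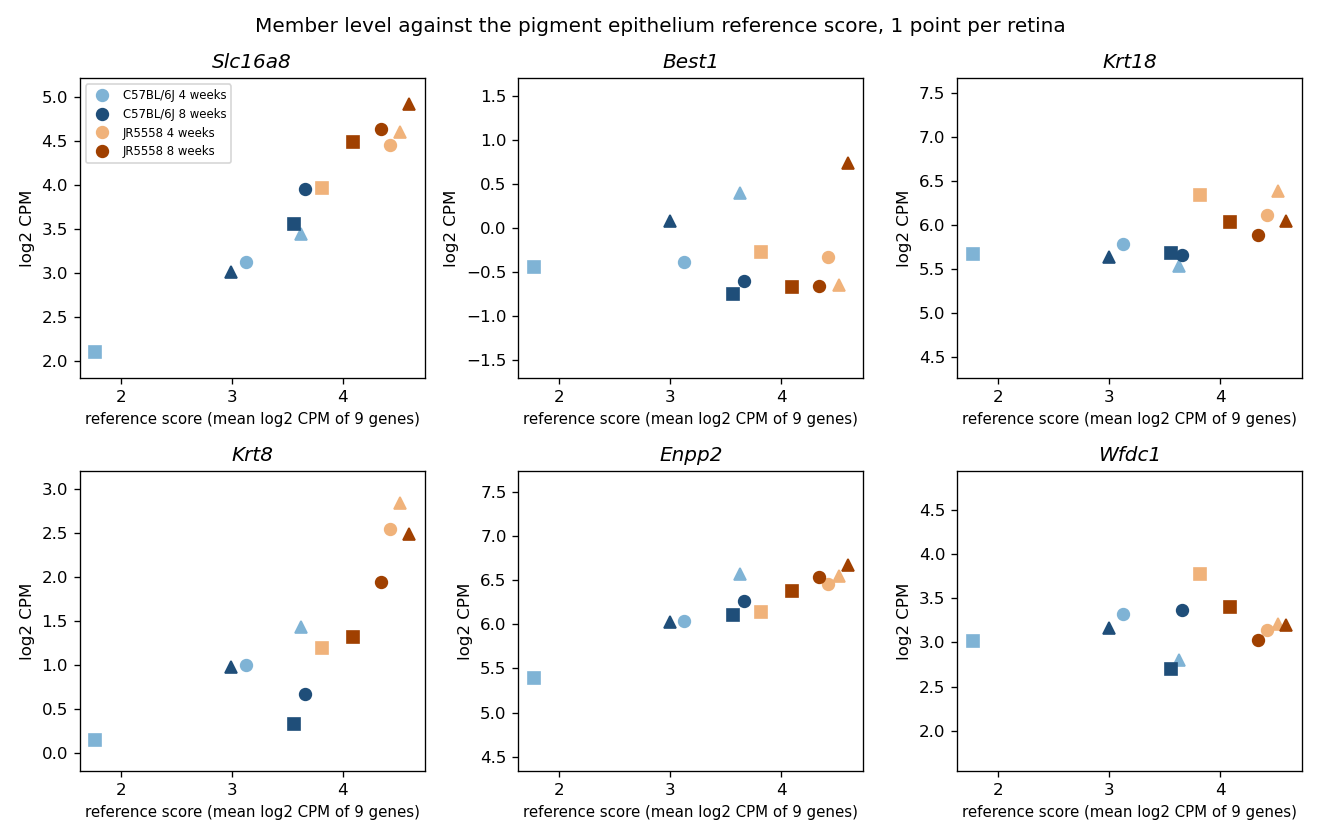
Log2 CPM of each of the 6 genes against the pigment epithelium reference score (mean log2 CPM of 9 genes) in the 12 libraries, coloured by group. Slc16a8 (r = 0.98) and Enpp2 (r = 0.93) lie along a line through both strains, Krt8 (r = 0.82) more loosely, and Best1 (r = 0.08) along none.

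Taking the reference score away from log2 CPM in each library asks whether a gene differed between strains by more or less than the reference genes did. On that scale limma gave differences near 0 for Slc16a8, 0.04 ± 0.51 at 4 weeks (adjusted p = 0.947) and 0.23 ± 0.51 at 8 weeks (adjusted p = 0.678). Krt8 was at -0.07 ± 0.59 (limma adjusted p = 0.906) and 0.31 ± 0.59 (adjusted p = 0.628). The errors leave room for a difference of either sign, so these values do not show that the genes moved equally with the reference. At 4 weeks 3 of 6 genes were lower relative to the reference: Best1 by limma at -1.68 ± 0.73 (adjusted p = 0.0283), Enpp2 at -1.03 ± 0.50 (adjusted p = 0.0470) and Wfdc1 at -1.09 ± 0.53 (adjusted p = 0.0480). Since 80.8% of all genes were called lower on this scale, that share says nothing about these genes in particular. Leaving out 1 library moved the count between 0 and 4 of the 6, and the genes called in either direction between 349 (without JR5558 4-week replicate 3) and 17195 of 18334. It was 939 without JR5558 4-week replicate 1 and 9292 without C57BL/6J 4-week replicate 2. The Best1 call ended without C57BL/6J 4-week replicate 2 or JR5558 4-week replicate 1 or 3, the Enpp2 call without any library but C57BL/6J 4-week replicates 2 and 3, and the Wfdc1 call without any but C57BL/6J 4-week replicate 3 and JR5558 4-week replicate 2 (limma adjusted p up to 0.102, 0.123 and 0.185). Krt18 was at -0.79 ± 0.50 (limma adjusted p = 0.125) and passed without C57BL/6J 4-week replicate 3 (-1.25, adjusted p = 0.0107). That is the fit in which 17195 of 18334 genes were called, so this pass is not particular to Krt18. At 8 weeks limma called 0 of 6, with 0 at an unadjusted p under 0.05, against 1.16% of all genes. Wfdc1 passed without C57BL/6J 4-week replicate 2 (-0.80, limma adjusted p = 0.0309). In that fit 13367 of 18334 genes were called, so the pass says nothing about Wfdc1 in particular.

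The reference genes themselves were mostly higher in JR5558 at 4 weeks: edgeR called 7 of 9, all but Rrh and Cdh3, with a median log2 fold change of 1.38, while DESeq2 called 3. At 8 weeks edgeR called 0 of 9, with 8 at an unadjusted p under 0.05, 0 by DESeq2 and a median of 1.06. Rpe65 was at 1.55 ± 0.40 (edgeR adjusted p = 0.0234) at 4 weeks and 1.36 ± 0.39 (adjusted p = 0.0522) at 8 weeks. The melanin genes shared by pigment epithelium and choroid were called higher in 5 of 8 at 4 weeks and 2 of 8 at 8 weeks.

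The families and pathways around the 6 are given as counts, to be read against the 6.16% of all genes called at 4 weeks and 5.18% at 8 weeks. Of 13 genes of monocarboxylate transport, the family of Slc16a8, edgeR called 1 higher at 4 weeks, the aromatic amino acid transporter Slc16a10 (0.92 ± 0.26, adjusted p = 0.0367), and 1 lower at 8 weeks, Slc16a6 (-0.47 ± 0.09, adjusted p = 0.00188). Bsg, the chaperone that carries MCT proteins to the cell surface, was at 0.14 ± 0.08 and 0.08 ± 0.08 and was not called. Of 19 keratin and keratin linker genes other than Krt8 and Krt18, 8 passed the filter on counts. Of these edgeR called 1 lower at 4 weeks, the desmosome plaque gene Pkp1 (-0.67 ± 0.13, adjusted p = 0.00335), and 0 at 8 weeks, with 1 at an unadjusted p under 0.05 and 0 by DESeq2.

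In ion and water transport, the setting of Best1, genes were called in both directions. Of 22 such genes edgeR called 2 higher and 0 lower at 4 weeks, and 6 at 8 weeks, 3 higher and 3 lower (7 by DESeq2), where 5.18% of all genes were called. The bicarbonate cotransporter Slc4a5 was raised at both ages (0.55 ± 0.08 and 0.41 ± 0.08; edgeR adjusted p = 0.000304 and 0.00564). The water channel gene Aqp1 was lower at 8 weeks (-0.33 ± 0.07, edgeR adjusted p = 0.00383). A list of 14 tested genes held relatives of Enpp2 and genes of lysophosphatidic acid, the product of autotaxin. Of these edgeR called only Enpp4, which was lower at both ages (-0.55 ± 0.13 and -0.46 ± 0.13, adjusted p = 0.0139 and 0.0454). Enpp4 is listed as a relative of Enpp2, not for a known part in lysophosphatidic acid. Of 7 tested genes with whey acidic protein or Kunitz inhibitor domains, edgeR called 0 at either age, with 3 and 0 at an unadjusted p under 0.05 and 0 by DESeq2 at both. The median log2 fold change at 4 and 8 weeks was -0.08 and 0.08 in the monocarboxylate list, 0.09 and 0.08 in the keratin list, 0.23 and 0.17 in the ion list, 0.15 and 0.13 in the lysophosphatidic acid list, and 0.44 and -0.06 in the inhibitor list.

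Genes whose log2 CPM was most like each of the 6 were sought among 13435 genes by Pearson correlation over the 12 libraries. For Slc16a8 these were Lmo1 (0.98), Rgr, an opsin of pigment epithelium and Müller glia (0.98), and Rdh5, a visual cycle dehydrogenase that is in the reference (0.97). For Enpp2 they were Ermn, a gene known from myelinating cells (0.95), and the visual cycle genes Lrat (0.94) and Rpe65 (0.94). Those of Enpp2 stayed at 0.95 each with group means removed. For Krt8 they included Csgalnact1 (0.96) and Gpc3 (0.92), at 0.92 and 0.93 with group means removed. For Krt18 they were Crhr2 (0.96), Grin2c (0.96) and Igfbp5 (0.95), which fell to 0.66, 0.66 and 0.58 with group means removed. For Best1, on 9 to 33 counts per library, the highest were Micos10 (0.89), Elp5 (0.87) and Yipf5 (0.86), and for Wfdc1 Tln1 (0.85), Letm1 (0.82) and Sema4c (0.81). All of these are the highest of 13435 correlations over only 12 libraries. How high such values run between unrelated genes was not tested. No visual cycle gene of the reference was among the 3 most alike to Krt18, Best1 or Wfdc1.

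Several of the 6 are also made by other cells of the eye, so markers of those cells were read in the same libraries. Of 8 Müller glia markers, edgeR called 5 higher at 4 weeks and 2 at 8 weeks, among them Rlbp1 (0.72 ± 0.08 and 0.61 ± 0.08; adjusted p = 3.64e-06 and 2.86e-05), a retinal-binding protein that the pigment epithelium also makes. Their summed level was 3546 to 4012 CPM in C57BL/6J at 4 weeks and 3830 to 4142 at 8 weeks, and 3966 to 4609 and 4771 to 5010 in JR5558. Of 7 genes of the ciliary and iris epithelium, 1 was called higher at 4 weeks and 2 at 8 weeks. Their summed level was 241 to 402 CPM (4 weeks) and 403 to 480 CPM (8 weeks) in C57BL/6J, and 519 to 658 and 651 to 771 CPM in JR5558. That sum rests largely on 1 of the 7, with means of 125 and 213 CPM in C57BL/6J and 307 and 478 CPM in JR5558. The median log2 fold change of the 7 was 0.41 at 4 weeks and 0.06 at 8 weeks, so the sum does not show that the markers rose as a set. The part of these cells in the differences of Slc16a8, Krt8 and Krt18 was not tested.

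Markers of corneal and conjunctival epithelium, a rich source of keratins, were low: the 7 summed to 3.90 to 7.10 CPM over all 12 libraries. Krt8 itself ran from 1.01 to 7.07 CPM, and the part of this tissue in the keratin levels was not tested. Markers of oligodendrocytes, which make Enpp2 in the nervous system, summed to 41.1 to 53.0 CPM over 8 genes in all groups. Of these edgeR called 0 of 5 tested at either age, with 1 at an unadjusted p under 0.05 at each age and 0 and 1 by DESeq2. The list includes Ermn, the gene most like Enpp2. Its log2 fold change was 0.94 ± 0.35 and 1.13 ± 0.34 (edgeR adjusted p = 0.131 and 0.0682), so the sum does not speak for each marker. Choroid and meningeal fibroblast markers summed to 47.0 to 82.2 CPM, with 0 of 9 called at either age by edgeR, 3 and 0 at an unadjusted p under 0.05 and 0 by DESeq2. Lens markers summed to 1.57 to 130.0 CPM, the highest in a C57BL/6J library of 4 weeks, and edgeR called 0 of 7 at either age, with 1 and 0 at an unadjusted p under 0.05 and 0 by DESeq2. Endothelial markers were called higher in 1 of 7 at 4 weeks, and at 8 weeks in 1 of 7, with 1 lower. Pericyte and smooth muscle markers were called higher in 1 of 7 at 4 weeks and in 0 of 7 at 8 weeks (edgeR, with 1 at an unadjusted p under 0.05 and 1 by DESeq2). Microglia and macrophage markers were called higher in 1 of 7 and 2 of 7.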

How the data were processed

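Poly-A RNA of 12 whole retinas was sequenced (paired-end). The submitters' processing notes list fastp, HISAT2 (2.0.5), featureCounts (1.5.0-p3) and mm10. The authors deposited 1 table with raw counts for every gene in every library, with FPKM values whose method is not given in the sources used here, and with log2 fold changes and both p-value columns of their own comparisons. Deposited gene positions differed from GENCODE M21 on GRCm38 and were not used. Whether counting used strand is not stated, so reads of Slc16a8, Krt8, Enpp2 and Wfdc1 cannot be told from those of overlapping genes on the other strand, which held at most 41, 3, 19 and 31 counts.

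Counts were tested in R 4.3.3 with edgeR 4.0.16 (TMM, filterByExpr with a minimum count of 10 and total of 15, quasi-likelihood test, 1 mean per group), adjusted by Benjamini-Hochberg over 18334 genes with a threshold of 0.05, 2-sided. limma 3.58.1 was used on log2 CPM (prior count 2) minus the reference score, and DESeq2 1.42.0 as an alternative. All 6 genes passed the filter. The genes and lists were chosen with earlier results of these data known. Named list genes are the first 3 called by adjusted p at each age, and like genes the 3 of highest correlation with a mean of at least 1 CPM. Bsg was named outside that rule, and a few genes chosen by it are not reported here. On simulated counts for the 4-week strain comparison (18334 genes, 50 planted per size), edgeR found 20 at 1.5-fold, 33 at 2-fold, 46 at 4-fold and 49 at 8-fold, beside 9 false calls.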

Additional observations from a re-analysis of the deposited data

How the results depend on the processing

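Each group held 3 mice, and Best1 had at most 33 counts in a library. The p-values of the main fit set a difference against the spread between mice, which was estimated from all 4 groups together. Over all alternatives, 104 counts of how many of the 6 genes passed stayed within 1.5 times their value and 22 did not. Of the other values, 757 kept their direction and call or, for counts over all genes, stayed within 1.5 times, 51 moved, 18 gained a call, 44 lost one and 37 changed sign. The causes of the changes below were not tested. Of the 6 genes, 4 passed for strain at 8 weeks with no filter on low counts, 4 in a fit of only the groups compared and 0 with the reference score as a covariate, which left 1 at 4 weeks. With no filter 1 passed for age in C57BL/6J, and with melanin genes as the reference 3 passed relative to it at 8 weeks. In that melanin fit 14886 of 18334 genes were called, so the 3 passes say nothing about these genes in particular. Best1 could not be tested with a filter of at least 1 CPM in 3 libraries. Leaving out 1 library gave 2 to 4 genes for strain at 4 weeks, 0 to 3 at 8 weeks, 0 for age in C57BL/6J, 0 to 1 for age in JR5558, 0 for the difference between ages, 0 to 4 relative to the reference at 4 weeks and 0 to 1 at 8 weeks.

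Over all genes, calls for strain at 4 and 8 weeks, age in C57BL/6J and in JR5558 and the difference were 1130, 949, 79, 277 and 17. In that order DESeq2 gave 1410, 1233, 308, 660 and 60, and no filter gave 1456, 1290, 445, 854 and 96. The fit of the groups compared gave 558, 2183, 22 and 544 for the first 4, and the covariate 415 and 521 for strain. Leaving out 1 library gave 814 to 1162, 538 to 1373, 16 to 126, 63 to 987 and 6 to 38 in the same order. Strain at 8 weeks was lowest without JR5558 8-week replicate 3, and age in JR5558 highest without C57BL/6J 4-week replicate 3, as was the difference. Relative to the reference at 8 weeks it gave 101 to 13367, the highest without C57BL/6J 4-week replicate 2, and 212 became 95 with Rpe65 alone and 14886 with melanin genes.

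Under the covariate the log2 value turned to -0.42 for Enpp2 strain at 4 weeks, -0.13 at 8 weeks and -0.19 for its age effect in C57BL/6J, to 0.018 for Krt18 age in C57BL/6J, and to 0.083 for Slc16a8 and 0.22 for Krt8 in the difference between ages. With Rpe65 alone as the reference, Slc16a8 turned to -0.48 at 4 weeks and -0.20 at 8 weeks and Krt8 to -0.12 at 8 weeks, and with melanin genes Krt8 turned to 0.37 at 4 weeks. The correlation of Best1 with the reference turned to -0.29 without the 2 libraries of most extreme score, a choice made after seeing the data.

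Leaving out 1 library turned the sign of values that were not called. For strain, Best1 ran from -0.54 to 0.012 at 4 weeks and from -0.33 to 0.73 at 8 weeks, and Wfdc1 from -0.049 to 0.27 at 8 weeks. For age in C57BL/6J, Enpp2 ran from -0.20 to 0.39, Krt18 from -0.065 to 0.055, Wfdc1 from -0.11 to 0.21, Krt8 from -0.58 to 0.062 and Best1 from -0.68 to 0.042. For age in JR5558, Wfdc1 ran from -0.29 to 0.052 and Best1 from -0.30 to 0.69. For the difference between ages, Enpp2 ran from -0.24 to 0.36, Slc16a8 from -0.55 to 0.082, Wfdc1 from -0.39 to 0.0043 and Krt8 from -0.44 to 0.24. Relative to the reference at 4 weeks, Slc16a8 ran from -0.080 to 0.18 and Krt8 from -0.26 to 0.21.

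Over all genes, the replicate numbers did not pair the libraries: of 18 same-numbered pairs, 0 had deviations correlated above 0.1 (-0.114 to 0.0867). With a replicate block, edgeR called 3 of the 6 genes for strain at 4 weeks and 2 at 8 weeks, where Krt8 passed (1.32, adjusted p = 0.00641) and Krt18 did not (0.33, adjusted p = 0.0679). The block took the 4-week SE of Krt8 from 0.41 to 0.26 and that of Enpp2 from 0.19 to 0.15. The SE also fell for Slc16a8 and Best1 and rose for Krt18 and Wfdc1. The correlations over all genes therefore do not settle pairing for these genes.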
